A study of Mus musculus with 26 samples.

Results

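A set of 10 genes of neutrophil granules and neutrophil recruitment was followed in bulk RNA sequencing of mouse liver: S100a8, S100a9, Mmp8, Mmp9, Ngp, Camp, Ltf, Csf3r, Cxcr2 and Hdc. They were chosen by name, and all 10 of 10 were found among the 55401 genes of the count table. All were male C57BL/6 mice whose fatty liver was brought on by diet: from an age of 4 weeks they ate food high in fat (HFD), and by the series design also in cholesterol, over 18 weeks. In the untreated HFD group (9 libraries) nothing else is listed. The UCMSC-Exos group (8 libraries) also received exosomes, small membrane vesicles, made by UCMSCs, given into the tail vein at intervals of 72 hours over 8 weeks. Since untreated mice have no listed injection, an effect of the vesicles and one of injecting, housing or cohort cannot be told apart. The group LSCR was not analysed here. The series title names the recruitment of reparative neutrophils as one of its subjects, and the comparison below asks whether the RNA of these genes differed between untreated and exosome-treated livers.

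Neutrophils are short-lived white blood cells that are made in the bone marrow and enter injured tissue from the blood. Their granules are filled in order while the cells mature. Myeloperoxidase and elastase of the azurophil granules are made in the earliest precursors, lactoferrin, cathelicidin and collagenase of the specific granules later, and gelatinase later still. Mature cells in tissue keep little of the granule mRNA but carry S100a8 and S100a9 transcripts and the receptors for G-CSF and for CXC chemokines. In liver RNA a lower level can mean fewer cells or less RNA per cell, and the data cannot tell these apart.

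Total counts were 32.9 to 36.1 M reads per library, so 3 reads of a gene correspond to about 0.08 CPM, the reads of a gene per 1e6 reads of the library. Library sizes in CPM were scaled by TMM. Albumin (Alb) stood between 23171 and 54584 CPM in all 17 libraries. Untreated HFD 3 held pancreas transcripts, with a summed level of 14000 CPM over 12 pancreas markers against 8.28 to 18.4 in the other 16 libraries. Untreated HFD 9 held muscle transcripts, with Mylpf at 417 CPM. The fits without these libraries are given with the results. No label says whether libraries share a mouse, so p-values measure the spread between these samples.

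None of the 10 genes separated the groups. Of the 9 that were tested 2 rose in UCMSC-Exos, Hdc and Mmp8, and 0 fell, and 3 had an unadjusted p below 0.05 (35.8% of all genes). Over all genes 3274 of 16238 passed an adjusted p of 0.05, or 20.2%, so a count of 2 is close to the background share. The ranges of the 2 groups overlapped for all 10 genes, and 1.3% of all tested genes had groups that did not overlap. Log2 fold changes, as UCMSC-Exos minus untreated HFD, were above 0 for 7 of the 9 tested genes and below 0 for the receptors Csf3r and Cxcr2. Their median was 0.38, against −0.02 over all tested genes. Camp had too few reads to be tested. Under other processing the members that passed were Hdc and Mmp8 with RLE size factors (20.1% of all genes) and with DESeq2 (25%). They were Hdc alone with upper quartile scaling (19.1%), with a floor of 1 CPM in 8 libraries (5 members tested, 23.4%), with halved counts (7 members tested, 22%) and with the replicate number as a block (18.6%). Without a filter and with surrogate variables 0 passed (7.28% and 9.54%), and limma voom called 4 (47.5%).

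**Figure D1:**
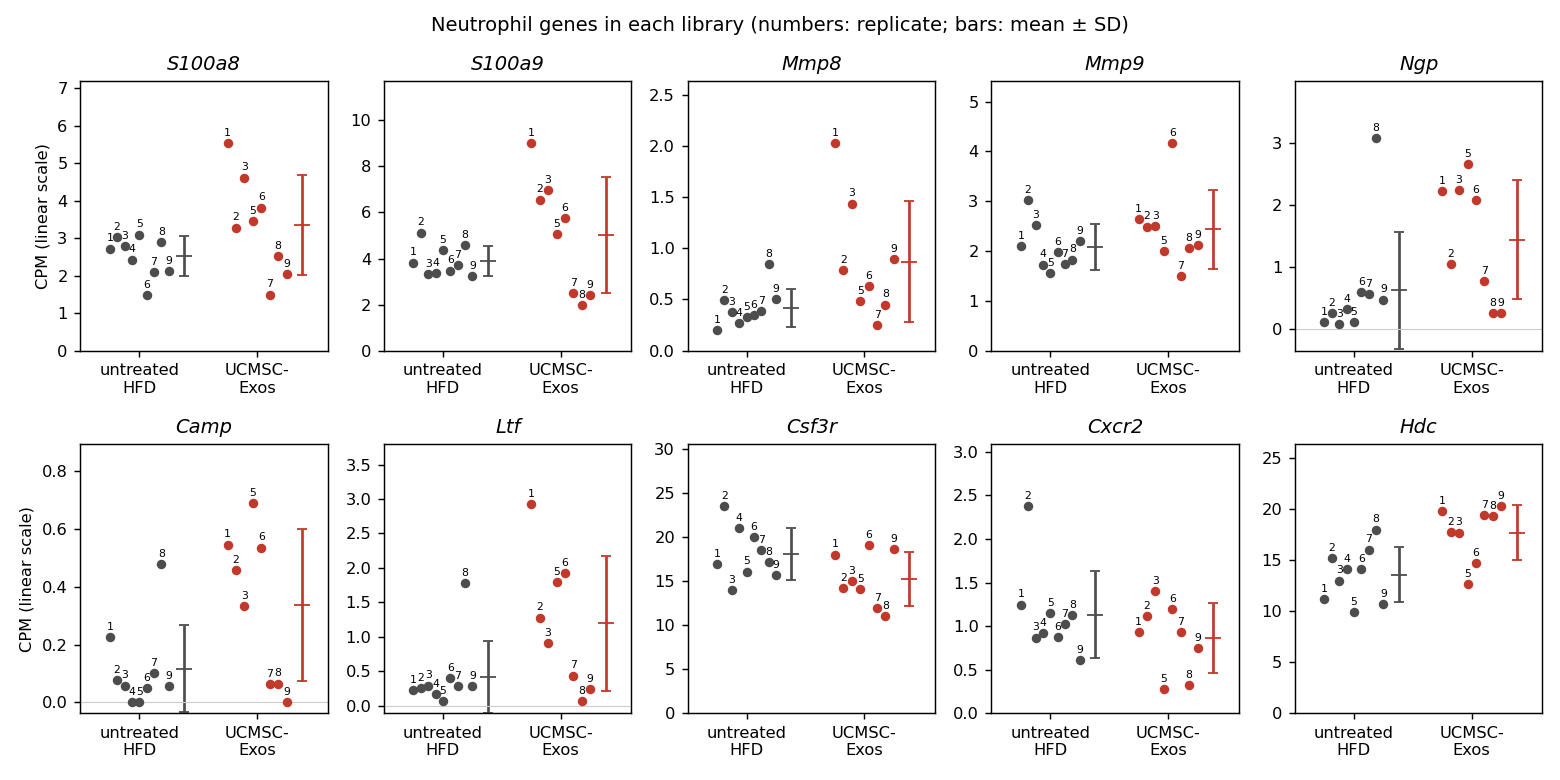
CPM on a linear axis for each of the 10 genes. Points are single libraries with the replicate number above, grey for untreated HFD and red for UCMSC-Exos, and bars give the mean ± SD. Untreated HFD 8 stands at 3.07 CPM for Ngp, above every treated library, and the groups overlap in every panel.

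Levels per kb of exon were compared first, since CPM favours long transcripts. In untreated livers S100a9 led at 7.45 ± 1.26 CPM per kb (SD, n = 9). Csf3r followed at 5.02 ± 0.82, then S100a8 at 3.62 ± 0.77 and Hdc at 2.13 ± 0.42 CPM per kb. Mmp9 and Ngp stood at 0.586 ± 0.130 and 0.510 ± 0.767, and Cxcr2 at 0.372 ± 0.165. Mmp8, Camp and Ltf closed the order at 0.171, 0.154 and 0.120 CPM per kb. Neighbours in this order stood apart in 9 of 9 untreated libraries for S100a9 above Csf3r and for Hdc above Mmp9. Ngp exceeded Cxcr2 in 4 of 9 and Camp exceeded Ltf in 4 of 9, so these neighbours did not differ beyond their spread. In treated livers S100a8, at 4.81 CPM per kb, ranked above Csf3r at 4.24, and Cxcr2 was last at 0.284.

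A trio of specific granule genes, Camp, Ngp and Ltf, lies near each other on chromosome 9 of mm10. Camp spans 109847379 to 109849617, Ngp 110419747 to 110423012 and Ltf 111019271 to 111042767, a stretch of 1195.4 kb from end to end. Mmp8 is far from them on the same chromosome, at 7558456 to 7568485. S100a8 (90668978 to 90670035) and S100a9 (90692632 to 90695721) are neighbours on chromosome 3, within 26.7 kb. The others are Mmp9 on chromosome 2 from 164940780 to 164955850, Hdc on chromosome 2 from 126593667 to 126619299, Csf3r on chromosome 4 from 126024550 to 126044440, and Cxcr2 on chromosome 1 from 74153989 to 74161246. No exon of the 10 genes overlaps an exon of another annotated gene on either strand.

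Promoters are shown for the genes of the specific granules and S100a9 because several of them varied together between libraries, as described below. Members of the C/EBP family, and C/EBP epsilon in particular, are known to drive specific granule genes. The stretches come from RefSeq on GRCm38.p6 (mm10), begin 250 bases before the RefSeq start and end before the first base of either annotation. Capitals mark a match to TTGCNNAA, a form of the C/EBP motif, on either strand. Ngp is shown at chr9:110419558-110419746 (+), Ltf at chr9:111019042-111019270 (+), Camp at chr9:109849618-109849706 (−), Mmp8 at chr9:7558179-7558428 (+) and S100a9 at chr3:90695722-90695971 (−).
Ngp: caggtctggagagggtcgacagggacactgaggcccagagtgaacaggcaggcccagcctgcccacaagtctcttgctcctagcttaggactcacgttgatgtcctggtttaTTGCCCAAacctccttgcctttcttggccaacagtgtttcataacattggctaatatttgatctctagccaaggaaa
Ltf: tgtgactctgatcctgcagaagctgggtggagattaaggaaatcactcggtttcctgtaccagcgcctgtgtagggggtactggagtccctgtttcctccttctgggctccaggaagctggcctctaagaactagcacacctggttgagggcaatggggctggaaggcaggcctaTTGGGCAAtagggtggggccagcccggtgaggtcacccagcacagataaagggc
Mmp8: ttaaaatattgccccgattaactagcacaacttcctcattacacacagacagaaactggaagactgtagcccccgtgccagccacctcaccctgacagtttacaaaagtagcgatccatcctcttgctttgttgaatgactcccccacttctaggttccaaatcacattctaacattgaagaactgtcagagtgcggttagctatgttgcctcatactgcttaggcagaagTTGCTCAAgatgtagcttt
S100a9: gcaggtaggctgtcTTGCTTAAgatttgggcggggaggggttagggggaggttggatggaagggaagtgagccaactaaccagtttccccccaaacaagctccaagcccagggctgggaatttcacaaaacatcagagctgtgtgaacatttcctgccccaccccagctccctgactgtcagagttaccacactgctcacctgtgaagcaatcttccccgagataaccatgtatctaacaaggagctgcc
Camp: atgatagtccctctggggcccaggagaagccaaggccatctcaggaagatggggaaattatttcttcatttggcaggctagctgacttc
Windows from 250 bases before to 50 bases after the start were listed for 9 of the 10 genes. TTGCNNAA was found in 4 of these 9, in S100a9, Mmp8, Ngp and Ltf, and in 10.8% of all 32851 windows. The PU.1 core GAGGAA was in 5 of 9 (Cxcr2, S100a8, Csf3r, Mmp8 and Ltf) and in 28.3% of all windows. The letters TATAAA of the TATA box were in 3 of 9 (S100a8, S100a9 and Mmp8) and in 13.6% of all windows. The S100a8 match began 30 bases before the start. In S100a9 the match began at the start itself, and in Mmp8 it lay on the opposite strand, 3 bases before the start. A GATA motif, AGATAA, was in 2 of 9, S100a9 and Ltf, and in 11.2% of all windows. The same pair held the RUNX motif TGTGGT, which was in 16.8% of all windows. The MYB motif AACGG was in 0 of 9 and in 17.4% of all windows. Both strands were searched, and the motifs were picked after the values had been seen. The count of matches is a description of these letters, not of binding.

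S100a8 and S100a9 encode the 2 subunits of calprotectin, the most abundant protein of the neutrophil cytosol. S100a8 ran from 1.47 to 3.10 CPM in untreated livers, with a median of 2.72, and from 1.49 to 5.53 CPM in treated ones, with a median of 3.36. The highest values were in UCMSC-Exos 1 and 3, and UCMSC-Exos 7 lay at the bottom of the untreated range. Its log2 fold change was 0.41 ± 0.22 (SE; edgeR adjusted p = 0.197). S100a9 ran from 3.23 to 5.12 CPM (median 3.71) in untreated and from 1.96 to 9.00 CPM (median 5.40) in treated livers. Treated libraries lay on both sides of the untreated ones: 4 of 8 were above the highest untreated library and 3 of 8 below the lowest. S100a9 did not pass either, at 0.37 ± 0.26 (edgeR adjusted p = 0.316). The SD of S100a9 was 2.54 CPM among treated and 0.656 CPM among untreated libraries.

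Mmp8, the neutrophil collagenase of the specific granules, rose in UCMSC-Exos. It ran from 0.198 to 0.845 CPM (median 0.377) in untreated livers and from 0.249 to 2.02 CPM (median 0.709) in treated ones, 7 of 8 of them above the untreated median. These levels rest on 7 to 30 reads per untreated and 8 to 63 reads per treated library. Reads and not fragments were counted, so both mates of a fragment can be among them. With halved counts, and with a floor of 1 CPM in 8 libraries, Mmp8 had too few reads to be tested. Its log2 fold change was 1.06 ± 0.37 (SE; edgeR adjusted p = 0.0489). When single libraries were left out, the call held only without untreated HFD 8 or UCMSC-Exos 7, 8 or 9, and 13 of 17 such fits missed the threshold. Without UCMSC-Exos 1, which held the highest value, the log2 fold change was 0.76 (edgeR adjusted p = 0.137). Mmp9, the gelatinase of the last granules, is also made by macrophages. It ran from 1.56 to 3.02 CPM (median 1.97) and from 1.49 to 4.16 CPM (median 2.30), and UCMSC-Exos 6 held the highest value. Mmp9 did not pass, at 0.23 ± 0.19 (edgeR adjusted p = 0.397).

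Ngp, a cathelicidin-related protein of the specific granules, was low in 8 of 9 untreated libraries. There it stood between 0.087 and 0.60 CPM, or 3 to 24 reads, and untreated HFD 8 held 3.07 CPM from 109 reads. Treated libraries ran from 0.258 to 2.65 CPM with a median of 1.57, and UCMSC-Exos 8 and 9 stood at the bottom of that range. The log2 fold change of Ngp was 1.20 ± 0.65 (edgeR adjusted p = 0.192). Ltf, the iron-binding lactoferrin, ran from 0.059 to 1.77 CPM (median 0.279) in untreated and from 0.0644 to 2.92 CPM (median 1.09) in treated livers. Untreated HFD 8 was again the highest untreated library, with 63 reads against 2 to 16 in the others. Ltf had a log2 fold change of 1.52 ± 0.63 (edgeR adjusted p = 0.0919). Without untreated HFD 8, 4 of the 9 tested genes passed (Mmp8, Ngp, Ltf and Hdc, against 20.9% of all genes), with Ngp at 2.15 (edgeR adjusted p = 0.0098) and Ltf at 2.26 (0.0102). Without UCMSC-Exos 9, 3 passed (Mmp8, Ltf and Hdc, against 35.7% of all genes), with Ltf at 1.68 (edgeR adjusted p = 0.0399).

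Camp, the precursor of the antimicrobial cathelicidin peptide, was near the limit of detection. It had 0 to 17 reads per untreated library (38 in all, 2 libraries at 0) and 0 to 20 reads per treated library (82 in all, 1 at 0). Untreated HFD 8 held 17 of the 38 untreated reads. In treated livers Camp stood between 0.334 and 0.689 CPM in UCMSC-Exos 1, 2, 3, 5 and 6, and at 0.0644 CPM or less in UCMSC-Exos 7, 8 and 9. Fitted with no filter on low counts, Camp had a log2 fold change of 1.49 ± 0.75 (edgeR adjusted p = 0.211), and 1.32 to 2.24 when each library was left out.

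**Figure D2:**
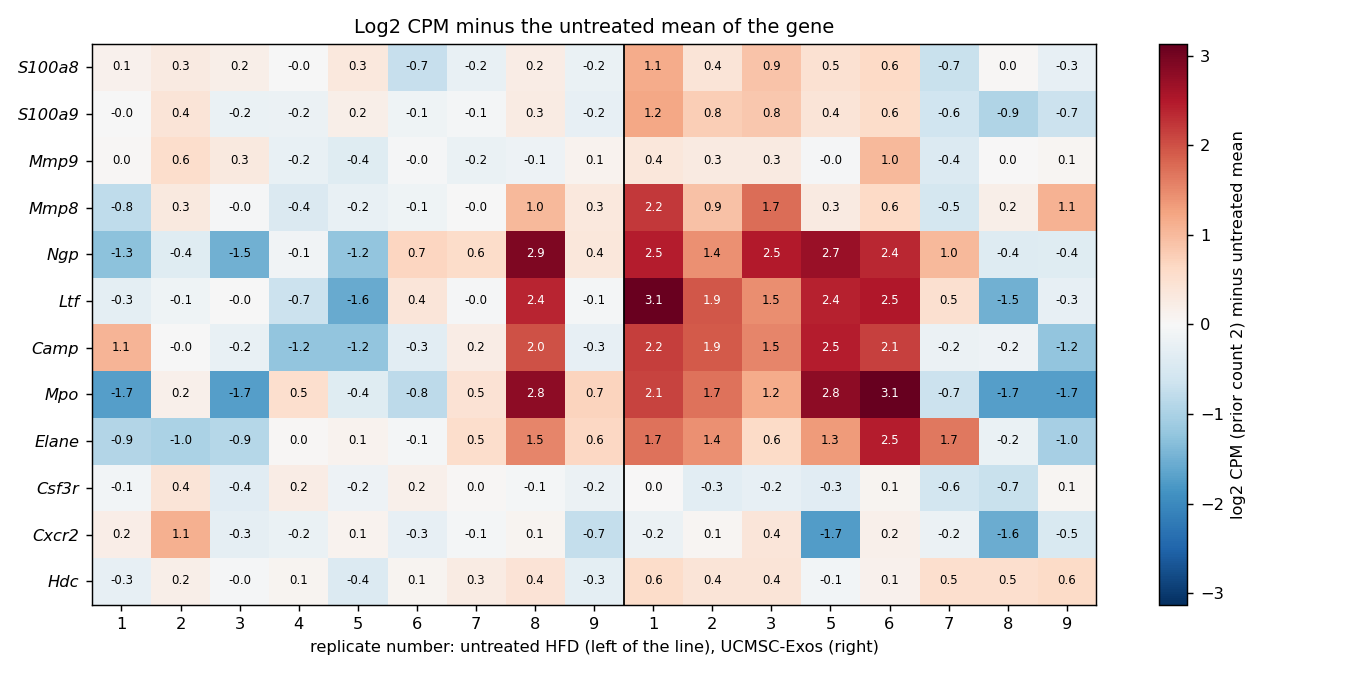
Log2 CPM of each library minus the untreated mean of the gene, for the 10 genes and the azurophil granule genes Mpo and Elane. Columns are libraries by replicate number, untreated HFD left and UCMSC-Exos right of the line. Red cells of Ngp, Ltf, Camp and Mpo stand together in untreated HFD 8 and in UCMSC-Exos 1, 2, 3, 5 and 6, and the rows of Csf3r and Cxcr2 do not follow them. Among treated libraries the row of Hdc does not follow them either.

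Ngp, Ltf and Camp varied together between libraries of a group by Pearson's r, as did S100a8 with S100a9, and none of these pairs passed the adjusted threshold by rank. On log2 CPM with the group mean removed (17 libraries), Ngp and Ltf had Pearson's r = 0.85 (permutation p = 8e-05, adjusted 0.0036 over 45 pairs) and Spearman's rho = 0.64 (permutation p = 0.0103, adjusted 0.116). Without the 2 libraries farthest from the median of Ngp, r was 0.77. Within untreated and treated libraries alone r was 0.83 and 0.91. Camp and Ltf had r = 0.85 as well (rho = 0.64, permutation p = 0.00016 and 0.00915, adjusted 0.0036 and 0.116), and r = 0.81 without the 2 farthest libraries. S100a8 and S100a9 had r = 0.81 (permutation p = 0.00058, adjusted 0.0087) and rho = 0.71 (permutation p = 0.00372, adjusted 0.0837), with r = 0.87 without the 2 farthest libraries. By Pearson's r 6 of the 45 pairs passed, and 0 passed by both measures. Among the 6 were S100a9 with Ltf (r = 0.74, permutation p = 0.00319, adjusted 0.0287) and with Camp (r = 0.72, permutation p = 0.00538, adjusted 0.0404). Their rho was 0.28 and 0.49 (permutation p = 0.31 and 0.0573, adjusted 0.581 and 0.335). Within treated libraries alone r was 0.91 and 0.88, and within untreated ones 0.18 and 0.34. The share of all gene pairs with such an r was not measured. Genes outside the set followed Ngp more closely than Ltf did: Adipor2, Cyp4a12a and Nsd3 (r = 0.89 each), Cd177 and Slco1a1 (0.88 each). S100a8 followed Hsp90ab1 and Med7 (0.82 each) about as closely as S100a9, and Gm45718 (0.76) less closely. High r values are therefore not shown to be particular to neutrophil genes. Ngp and the receptor Cxcr2 had r = 0.10 (permutation p = 0.702, adjusted 0.752) and rho = −0.03 (permutation p = 0.927, adjusted 0.949), with r = −0.10 without the 2 farthest libraries. S100a9 and Cxcr2 were the pair that passed by rank, at rho = 0.78 (permutation p = 0.00096, adjusted 0.0432), with r = 0.52 (permutation p = 0.0945, adjusted 0.262) and r = 0.38 without the 2 farthest libraries. Among untreated libraries alone their r was 0.87. Hdc and Ngp had r = 0.16 (permutation p = 0.559, adjusted 0.68) and rho = 0.12 (permutation p = 0.676, adjusted 0.856). The r of Hdc with Ltf and Camp was 0.08 and −0.09 (permutation p = 0.761 and 0.743). Among untreated libraries alone the r of Hdc with Ngp, Ltf and Camp was 0.695, 0.72 and 0.48. Among treated libraries alone it was −0.62, −0.50 and −0.66.

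Csf3r encodes the receptor for G-CSF, the growth factor that releases neutrophils from the marrow, and monocytes also carry it. It ran from 13.98 to 23.6 CPM (median 17.2) in untreated and from 11.1 to 19.1 CPM (median 14.7) in treated livers. Only UCMSC-Exos 7 and 8 lay below the lowest untreated library. Csf3r had a log2 fold change of −0.25 ± 0.12 (edgeR adjusted p = 0.156). Cxcr2, the receptor that guides neutrophils along CXC chemokines, ran from 0.613 to 2.38 CPM (median 1.02) and from 0.276 to 1.40 CPM (median 0.933). Untreated HFD 2 held the highest value, and UCMSC-Exos 5 and 8 the lowest. Its log2 fold change was −0.39 ± 0.31 (edgeR adjusted p = 0.393), and −0.17 without untreated HFD 2. UCMSC-Exos 5, the library with the highest Ngp and Camp among treated ones, held the lowest Cxcr2.

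Hdc, histidine decarboxylase, makes histamine and is known from mast cells, basophils and immature neutrophils. It ran from 9.91 to 18.0 CPM (median 14.1) in untreated and from 12.7 to 20.3 CPM (median 18.5) in treated livers. Of the 8 treated libraries 7 were above the untreated median and 4 above the highest untreated library. Hdc rose, with a log2 fold change of 0.38 ± 0.12 (SE; edgeR adjusted p = 0.035). Of the 17 single-library omissions 8 ended the call: those of untreated HFD 1, 5 and 9 and of UCMSC-Exos 1, 2, 3, 7 and 8, with an adjusted p of up to 0.0695. It also ended without untreated HFD 3 and 9 together, at 0.33 (edgeR adjusted p = 0.0723), where 0 of the 9 genes passed against 20.6% of all genes. Of 16 markers of mast cells and basophils 3 had enough reads to be tested, and none passed. Their summed level was 14.8 to 27.0 CPM in untreated and 15.5 to 25.3 CPM in treated livers, most of it from Kit, and 3 of the 16 were at 0 in every library. The mast cell proteases Mcpt4, Tpsb2 and Cpa3 stood at 1.48, 2.43 and 1.23 CPM in untreated HFD 9 and at 0.174 CPM or less elsewhere. Hdc in untreated HFD 9 was 10.7 CPM, the second lowest untreated value.

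**Figure D3:**
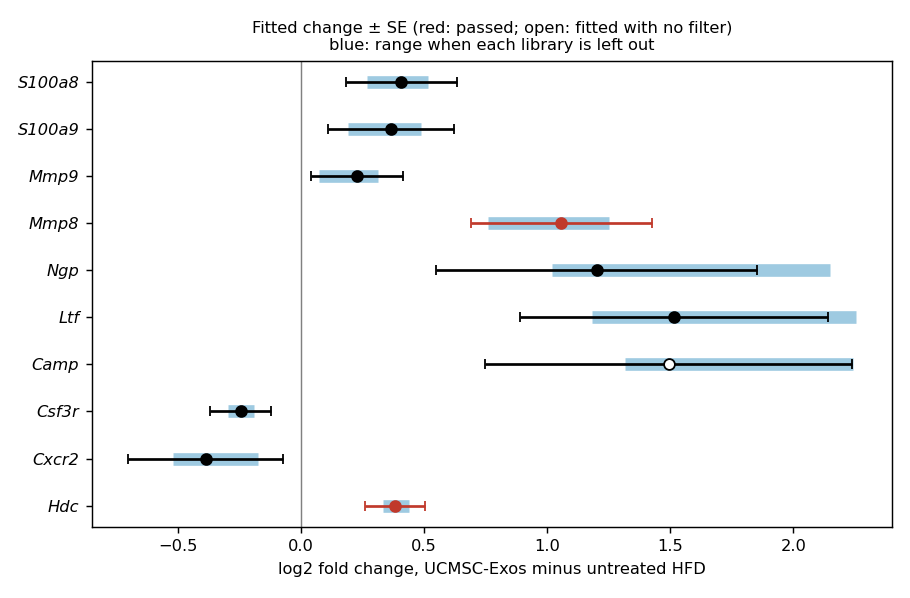
Log2 fold change (UCMSC-Exos minus untreated HFD) of the 10 genes with SE bars. Red marks Mmp8 and Hdc, which passed, the open point Camp, fitted with no filter, and blue bars the range when each of the 17 libraries is left out. The blue bars of Ngp and Ltf reach 2.15 and 2.26.

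Other neutrophil genes gave a mixed picture. Of 9 azurophil granule genes 5 were tested, 0 rose and 1 fell, with a median log2 fold change of −0.26. Mpo, myeloperoxidase, had 81 reads in untreated and 142 in treated livers in all, and Elane, neutrophil elastase, had 64 and 120. Both had too few reads to be tested, so the median above leaves them out. The list summed to 246 to 339 CPM in untreated and 179 to 291 CPM in treated livers. Mpo and Elane did not exceed 1.61 and 1.135 CPM in any library, so nearly all of that sum came from other genes. With no filter the log2 fold changes of Mpo and Elane were 1.21 and 1.29 (edgeR adjusted p = 0.434 and 0.128). Elane passed in 2 of the 17 single-library omissions of that fit, and Mpo in 0. Those were without untreated HFD 8, at 1.73 (edgeR adjusted p = 0.0411), and without UCMSC-Exos 9, at 1.47 (0.035). Mpo was highest in untreated HFD 8 among untreated libraries, at 1.27 CPM, and in UCMSC-Exos 5 and 6 among treated ones, at 1.27 and 1.61 CPM. Srgn, the proteoglycan that packs granule proteins and is made by many blood cells, fell with a log2 fold change of −0.41 (edgeR adjusted p = 0.0303), a call that 4 of the 17 single-library omissions ended.

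Of 14 tested genes of specific and gelatinase granules beyond the 10, 0 rose and 3 fell, with a median of −0.38. Lcn2, a siderophore-binding granule protein that hepatocytes also make, fell by 1.07 from 689 ± 320 to 329 ± 138 CPM (SD, n = 9 and 8). The oxidase subunits Cybb and Cyba, shared with macrophages, fell as well, by 0.38 and 0.60 (log2; edgeR adjusted p = 0.0126 and 0.0364). Ncf4, another subunit of the NADPH oxidase, which makes superoxide, fell by 0.61. Of the 17 single-library omissions 7 ended the call of Cyba. Without untreated HFD 3, Cyba fell by 0.40. For comparison, 9.73% of all genes rose and 10.4% fell.

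Among 24 tested neutrophil identity genes 1 rose and 3 fell, with a median of −0.21. Cebpe, the factor of the C/EBP family named above, rose by 0.38 (edgeR adjusted p = 0.0397), from 11.9 ± 2.18 to 15.5 ± 2.71 CPM (SD, n = 9 and 8). That call ended in 10 of the 17 single-library omissions. Cebpe stood at 18.6 and 18.0 CPM in UCMSC-Exos 5 and 6, where Ngp was 2.65 and 2.08 CPM. It stood at 17.2 and 16.6 CPM in UCMSC-Exos 7 and 8, where Ngp was 0.778 and 0.258 CPM. A relation of Cebpe to the granule genes was not tested. Mcemp1, a membrane protein of mast cells and myeloid cells, fell by 1.12 and Cd300lf, an inhibitory receptor, by 0.57. G0s2, a lipase inhibitor that hepatocytes also make, fell by 1.57. Ly6g, the surface marker by which mouse neutrophils are usually sorted, had 14 reads in all untreated and 18 in all treated libraries. Retnlg, a marker of mature neutrophils, stood at 0.635 ± 0.231 and 0.862 ± 0.468 CPM (SD, n = 9 and 8) and did not pass, at 0.44 (edgeR adjusted p = 0.390).

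Signals that attract neutrophils did not move one way. Of 16 tested chemoattractants 1 rose and 2 fell, with a median of −0.03. Cxcl5, a ligand of Cxcr2, fell by 1.66 ± 0.44 (log2, SE; edgeR adjusted p = 0.0156), from a median of 1.13 to 0.414 CPM. These levels rest on 19 to 61 reads per untreated and 0 to 30 reads per treated library. With a floor of 1 CPM in 8 libraries Cxcl5 was not tested. The other Cxcr2 ligands Cxcl1 and Cxcl2 did not pass, at 0.58 ± 0.25 and 0.73 ± 0.31 (edgeR adjusted p = 0.109 and 0.0969). Cxcl1 ran from 6.45 to 24.5 CPM in untreated and from 11.4 to 30.4 CPM in treated livers. Without untreated HFD 5, which held its highest untreated value, Cxcl1 passed (edgeR adjusted p = 0.0351). Hc, which encodes complement C5, the source of the attractant C5a, rose by 0.58 (edgeR adjusted p = 0.00878), and the alarmin Il33 fell by 0.77 (0.0407), a call that 11 of the 17 omissions ended. Csf3, which encodes G-CSF, had 4 and 2 reads in the groups, and Il17a had 0 reads in all 17 libraries, which allows up to 3 reads in each.

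Of 15 tested receptors for such signals 1 rose and 5 fell, with a median of −0.51. Il1r1, the interleukin-1 receptor, rose by 0.76 ± 0.07 (log2, SE; edgeR adjusted p = 3.91e-06), with every treated library above every untreated one. Ptafr, the receptor of platelet-activating factor, fell by 0.84, C3ar1 of complement C3a by 0.80 and Cxcr4, which holds neutrophils in the marrow, by 0.78. The omissions ended the call of C3ar1 in 8 and of Cxcr4 in 5 of 17 cases. Cxcr1, the partner of Cxcr2, had 45 and 32 reads in the groups. Of 16 adhesion molecules of neutrophil entry 0 rose and 3 fell, with a median of −0.17: Itgb2 by 0.32, Selplg by 0.35 and Icam1, the endothelial ligand, by 0.46 (edgeR adjusted p = 0.0398, 0.0469 and 0.0498). Between 11 and 14 of the 17 omissions ended each of these calls.

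**Figure D4:**
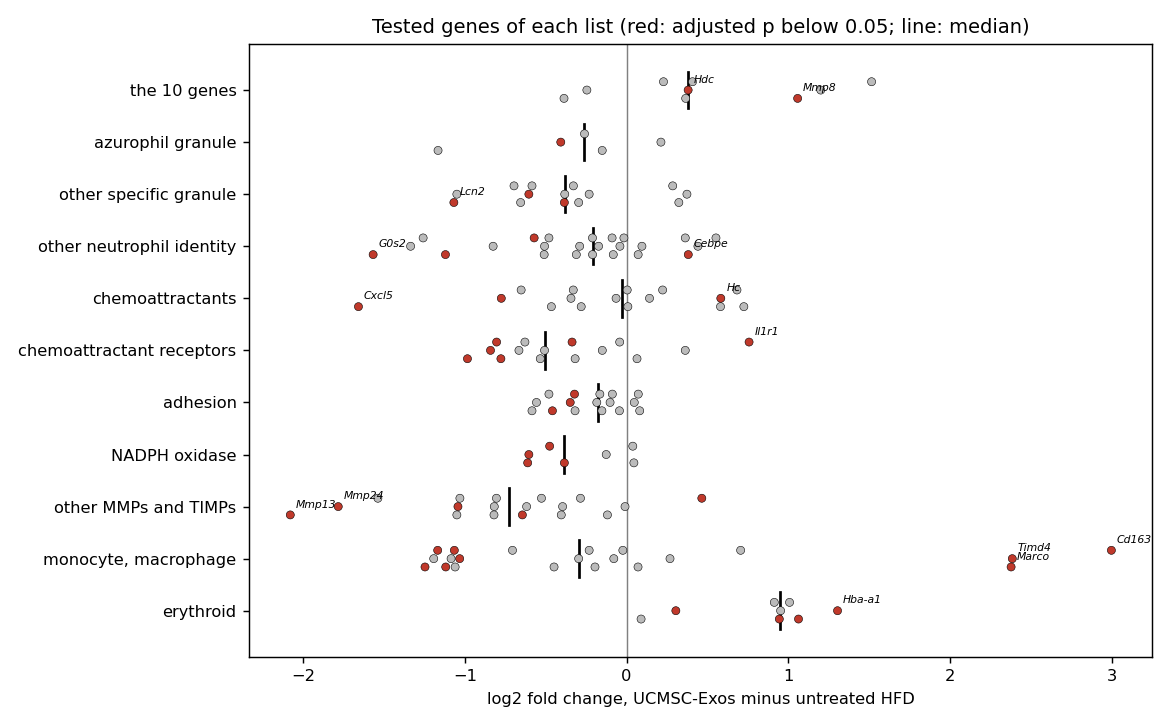
Log2 fold change (UCMSC-Exos minus untreated HFD) of the tested genes of 11 lists. Each point is a gene, red where its adjusted p was below 0.05, and the black line is the list's median. Medians are 0.38 for the 10 genes, −0.51 for the receptors and 0.95 for the erythroid list.

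Partners of the 10 genes were measured too. Of 9 tested receptors of calprotectin and histamine and histamine carriers 0 rose and 2 fell: Hrh2, a histamine receptor, by 0.89 (edgeR adjusted p = 0.00873) and Cd36, a scavenger receptor, by 0.47. Tlr4 and Ager, receptors of calprotectin, did not pass, at −0.12 and 0.39. None of 6 tested members of the S100 family beyond S100a8 and S100a9 passed, and S100a11 and S100a6 stood at −0.72 and −0.43 (edgeR adjusted p = 0.168 and 0.232). Of 18 other matrix metalloproteinases and inhibitors 1 rose and 4 fell, with a median of −0.72. The collagenase Mmp13 fell by 2.08 ± 0.29 (log2, SE; edgeR adjusted p = 1.38e-04), Mmp24 by 1.78, Mmp14 by 0.64 and the inhibitor Timp1 by 1.04, while Mmp19 rose by 0.47. The call of Timp1 ended in 11, that of Mmp19 in 8 and that of Mmp24 in 3 of the 17 omissions, and Timp1 was at −1.60 without UCMSC-Exos 9. Markers of stellate cells and fibroblasts and of cholangiocytes moved with this list, with medians of −0.87 and −0.96 and 3 of 9 and 1 of 10 called lower. The cholangiocyte call was Tff2, at 29.7 CPM in untreated HFD 3, which held pancreas transcripts, and at most 0.88 CPM elsewhere. Of the 3 stellate calls 1 was Des, at 681 CPM in untreated HFD 9, which held muscle transcripts, and at most 14.4 CPM elsewhere. UCMSC-Exos 9 stood apart from the other treated livers in all 3 lists. Its summed level was 698 CPM for the metalloproteinase list against 310 to 381 in the other treated livers. It was 2180 against 505 to 759 for stellate and 610 against 49.7 to 132 for cholangiocyte markers. Untreated livers ran from 360 to 633, 817 to 2360 and 125 to 539 CPM. Its hepatocyte markers summed to 48300 CPM, against 63900 to 87300 in the other treated and 40600 to 61300 CPM in untreated livers. The part of stellate cells, fibroblasts and cholangiocytes in the change of the metalloproteinase list was not tested. Of 12 transcription factors of granulocytes 2 rose and 2 fell: Nfil3 by 0.95 and Cebpe, against Spi1 (PU.1) by 0.52 and Cebpd by 0.39. The call of Spi1 ended in 3 and that of Cebpd in 12 of the 17 omissions.

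Several calls among these other genes depended on the libraries with foreign transcripts or on the model. Without untreated HFD 3 and 9, edgeR no longer called Cebpe (0.34, adjusted p = 0.0603), Srgn (−0.39, 0.0558), Il33 (−0.58, 0.0621), Itgb2 (−0.27, 0.091), Cebpd (−0.34, 0.0688) and Mmp19 (0.39, 0.0767). With surrogate variables in the fit, edgeR also ended the call of Hc, at 0.17 (adjusted p = 0.115), and Mmp19 stood at 0.04 (adjusted p = 0.802). The same fit ended the calls of Cxcl5 (−1.24), Il33 (−0.27), Ptafr (−0.47), C3ar1 (−0.50) and Cxcr4 (−0.54), of Cybb (−0.28), Cyba (−0.24) and Ncf4 (−0.40), and of Srgn (−0.26), G0s2 (−1.50), Mcemp1 (−1.22) and Hrh2 (−0.82). It ended those of Cebpe (0.16), Spi1 (−0.38), Cebpd (−0.12), Itgb2 (−0.14), Selplg (−0.21), Icam1 (−0.20) and Mmp24 (−1.21) too. Il1r1, Lcn2, Cd300lf, Cd36, Mmp13, Mmp14, Timp1 and Nfil3 passed in both fits, with surrogate values of −0.35 for Mmp14, −0.59 for Timp1 and 0.61 for Nfil3.

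Markers of other cells moved between the groups beside the 10 genes. Of 21 monocyte and macrophage markers 3 rose and 5 fell, with summed levels of 1490 to 2700 CPM in untreated and 1700 to 2440 CPM in treated livers. Ly6c2 and Ccr2 of inflammatory monocytes fell by 1.06 and 1.12, Fcgr1, an Fc receptor, by 1.17 and Plac8 by 1.25. The 3 that rose were Cd163, Timd4 and Marco of resident macrophages, by 3.00, 2.39 and 2.38. All 10 hepatocyte markers rose, with a median of 0.66, and so did 2 of 12 lymphocyte markers, Jchain of plasma cells by 2.97 and Cd4 by 1.62. Of 8 tested erythroid genes 4 rose, with a summed level over 10 listed genes of 244 to 387 CPM against 299 to 579 CPM. Hba-a1 ran from 9.75 to 60.8 CPM (median 22.8) in untreated livers, with the highest value in HFD 9, and from 42.3 to 100.1 CPM (median 62.0) in treated ones. It stood at 30.7 CPM in untreated HFD 8. The part of blood, monocytes, macrophages or hepatocytes in the levels of the 10 genes was not tested.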

How the data were processed

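Bulk RNA-seq read counts per gene were taken from the deposited table for 9 untreated HFD and 8 UCMSC-Exos livers. The submitters' processing notes name mm10, Subread 2.0.2 with featureCounts, HISAT2 2.2.1 and fastp 1.3.3. The deposited counts were made, per the file headers, by featureCounts 2.1.1 over GENCODE vM25 exons, with the paired flag but no option to count fragments, to use strand or to count multi-mapping reads. The versions in the notes and in the header differ. The authors did not normalize the counts. Of 18 per-sample columns 1 matched no sample and was not used.

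Symbols were matched by gene ID (55141 of 55401). Counts were fitted in R 4.3.3 with edgeR 4.0.16: filterByExpr (minimum count 10), TMM, robust quasi-likelihood F test, two-sided, Benjamini-Hochberg over all 16238 tested genes, threshold 0.05. The SE is the log2 fold change divided by the root of F. Log2 CPM used a prior count of 2. Correlations used 100000 permutations within groups, with ranks taken within groups. The 10 genes and the gene lists were chosen with earlier results of these data known. Named genes were all 10 members, the textbook partners of members, and in each list up to 4 that passed or 2 where none did. Others were picked after their values were seen, among them Alb, Mylpf, Retnlg, Mcpt4, Tpsb2, Cpa3, Il17a, Cd163, Timd4 and Marco.

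Alternatives were RLE and upper quartile scaling, other filters, DESeq2 1.42.0, limma 3.58.1 voom with quality weights, the replicate number as a block, 3 surrogate variables (sva 3.50.0), halved counts, and leaving out libraries. The fit was tested on simulated counts for this comparison, over 15987 genes. Of genes changed by 0.5, 1 and 2 on the log2 scale 40.9%, 79.7% and 93.7% were recovered, and 6 of 143 calls were false. The changed genes were few and drawn at random over all levels, and no library was made to stand apart. These shares therefore do not describe members of few reads or the calls that rest on single libraries. No pair of libraries agreed within sampling noise: UCMSC-Exos 2 and 3 were closest, at 3.79 times the median chi-square of sampling alone.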

Additional observations from a re-analysis of the deposited data

Results flagged for a closer look

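Within each group of libraries, the gap of the highest or lowest library to its neighbour was compared with the group's range for the 10 genes. Of 20 groups checked 6 held a library far from the others. The rule flags about 1 in 20 by chance only for independent, normally distributed values. Linear CPM from few reads, in genes that vary together, do not meet this, so the count of 6 is a description. Untreated HFD 8 was far above the other untreated livers for 4 genes: Ngp at 3.07 CPM, Ltf at 1.77 CPM, Camp at 0.479 CPM and Mmp8 at 0.845 CPM. It was within the untreated range for S100a8 (2.90 CPM), S100a9 (4.59 CPM), Csf3r (17.2 CPM) and Cxcr2 (1.13 CPM). It also held the highest untreated Hdc, at 18.0 CPM against 16.1 CPM in the next library. Untreated HFD 2 was far above the others for Cxcr2, at 2.38 CPM, and held the highest Csf3r, at 23.6 CPM. UCMSC-Exos 6 was far above the other treated livers for Mmp9, at 4.16 CPM.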

How the results depend on the processing

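Leaving out 1 library at a time gave 2005 to 5823 passing genes (2005 without UCMSC-Exos 3, 2086 without UCMSC-Exos 2 and 5823 without UCMSC-Exos 9) and 0 to 4 passing members, with Mmp8 at 0.76 to 1.25, Ngp at 1.02 to 2.15, Ltf at 1.18 to 2.26 and Hdc at 0.33 to 0.44. Surrogate variables left 1549 genes (9.54%) and 0 members, with Mmp8 at 0.99, Hdc at 0.43, and S100a9 and Ngp turned to −0.10 and −0.12 (adjusted p = 0.89 and 0.939). Voom gave 7711 genes (47.5%) and 4 members, Mmp8, Hdc, Ngp at 1.66 and Csf3r at −0.42. Upper quartile scaling gave 1 member (19.1% of genes; Mmp8 at 1.04), no filter 0 members (7.28%; Mmp8 at 1.06, Hdc at 0.38), at least 1 CPM in 8 libraries 1 of 5 members tested (23.4%), halved counts 1 of 7 (22%), and leaving out untreated HFD 3 and 9 gave 0 (20.6%; Mmp8 at 1.08, Hdc at 0.33). Among the other named genes, no filter also ended the calls of Cebpe, Cyba, Timp1, Il33, C3ar1, Icam1, Itgb2, Selplg and Cebpd, and RLE and upper quartile scaling those of Icam1 and Selplg. The cause was not tested, except that the stricter filters test fewer members. With the replicate number as a block 3027 genes (18.6%) and 1 member passed, Hdc, with Mmp8 at 0.83 (adjusted p = 0.202), and the block also ended the calls of Lcn2 (−0.97, adjusted p = 0.0858), Cyba, Srgn, Icam1, Spi1 and Cebpd. The numbers did not pair the libraries: same-numbered deviations correlated at −0.17 to 0.24, over 0.1 in 2 of 8 pairs, and 1 of 8 libraries correlated best with its own number. RLE scaling and DESeq2 called Mmp8 and Hdc alone among the members. Mmp8, Ngp, Ltf and Camp rest on few reads, and intervals from reads would cover counting error only.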

Other observations

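Genes whose levels followed a member most closely were ranked over 16229 genes by Pearson's r of log2 CPM with the group mean removed, over 17 libraries that share depth and scaling. For Ngp these were Adipor2 (r = 0.89), Cyp4a12a (0.89), Nsd3 (0.89), Cd177 (0.88), a neutrophil surface protein, and Slco1a1 (0.88), an organic anion transporter of hepatocytes. For S100a8 they were Hsp90ab1 (0.82), Med7 (0.82), Gm45718 (0.76), Gm49041 (0.75) and Cops4 (0.75). For Hdc the list was led by Gm26885 (0.85) and Rgs16 (0.84), and for Cxcr2 by Gm8399 (0.78) and Mid1 (0.73).

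Eosinophil, platelet and cycling genes showed few calls. Siglecf, a receptor of eosinophils and some macrophages, fell by 0.99 (log2; edgeR adjusted p = 0.0283), 1 of 2 tested eosinophil markers. None of 6 tested platelet markers passed, with Ppbp, a CXC chemokine of platelets, at 0.68 (edgeR adjusted p = 0.193) and Pf4 at −0.65 (0.261). None of 8 proliferation genes passed, with a median of −0.22, and their summed level was 73.9 to 98.5 CPM in untreated and 35.8 to 148 CPM in treated livers.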
